A study of Mus musculus with 12 samples.

Results

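The genes described here are the machinery of autophagy and the mTOR and AMPK genes that control it. They were chosen by gene symbol as a list of 56 genes, of 55901 genes measured, covering the ULK initiation complex, class III PI3-kinase nucleation, lipid transfer, ATG8 conjugation, the ATG8 proteins, cargo receptors, fusion with lysosomes, the mTOR complexes and AMPK. The filter on low values (a mean of at least 0.5 FPKM over the 12 libraries) left 15016 genes for testing, 53 of the 56 among them. Gene positions are those of GRCm38. FPKM is fragments per kilobase of exon, scaled per library. The length used for these genes was that of all annotated exons together, not of a single transcript. Levels of different genes therefore depend on that length as well as on their reads.

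Autophagy carries cytoplasm into a double membrane, the autophagosome, and delivers it to lysosomes. The ULK kinase complex starts the process, a lipid kinase complex marks the membrane with PI3P, and ubiquitin-like enzymes couple ATG8 proteins (LC3 and GABARAP) to it. The kinase mTOR holds ULK back when nutrients are plentiful, while AMPK, which senses low energy, releases it. Neurons do not divide and depend on this route for the turnover of synaptic proteins and organelles.

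RNA-seq had been performed on primary cortical neurons of neonatal C57BL/6J mice, with 4 libraries in each of 3 groups. Control cultures were uninjured, the Trauma group was scratched with a needle, and the Trauma+TGF-β1 group (labelled Tra_TGF) was scratched and given TGF-β1 at 10 ng/ml for 24 h; all cultures had received arabinosylcytosine, which limits dividing glia. No group received TGF-β1 without injury, and the labels do not say whether the libraries came from separate cultures or litters or from pooled pups, so p-values measure the spread between these libraries, which may be technical. The libraries held between 15052486 and 17381671 reads on genes.

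The neuronal markers Tubb3, Map2, Rbfox3 and Snap25 were high in every group, with no group mean below 43.7 FPKM. The 8 neuron markers summed to 1356 to 1423 FPKM in Control, 1214 to 1292 FPKM for Trauma and 1145 to 1185 FPKM after TGF-β1. Tubb3 alone averaged 960, 842 and 739 FPKM in that order, so the sums mostly follow this gene. In Trauma against Control, Gad1 was called higher and Tubb3 and Syt1 lower, 3 of the 8, beside 6.00% of all genes. Markers of other cells were present as well, and none was at 0 in all libraries. The summed level of 8 astrocyte markers was 139 to 149.9 FPKM in Control, 185 to 228 FPKM for Trauma and 209 to 227 FPKM after TGF-β1. Gfap, the highest of them, averaged 47.7, 87.3 and 97.1 FPKM in that order. In Trauma against Control 7 of the 8 were called higher, beside 6.00% of all genes called. The 7 microglial markers summed to 15.4 to 19.0 FPKM in Control, 23.5 to 31.3 FPKM for Trauma and 19.9 to 23.0 FPKM after TGF-β1, with 3 of them, Aif1, Tmem119 and P2ry12, under the filter. The 6 oligodendrocyte lineage markers summed to 45.9 to 48.7, 56.9 to 64.1 and 56.2 to 62.7 FPKM in the same order, and those of endothelial and mural cells and of fibroblasts to at most 2.50 FPKM each. In Trauma+TGF-β1 against Trauma, 3 of 8 neuron markers were called, Map2 higher and Tubb3 and Slc17a7 lower, beside 12.1% of all genes. Of the 8 astrocyte markers 3 were called, Aqp4 higher and Aldh1l1 and Gja1 lower. None of the 4 microglial or 5 oligodendrocyte markers tested was called, nor the 1 endothelial or mural and 1 fibroblast marker tested. Mitochondrially encoded reads made up 2.12% to 2.97% of the reads in Control, 2.17% to 2.30% for Trauma and 2.69% to 3.23% after TGF-β1. The part of these shifts in the results below was not tested, and in whole cultures fewer cells of a type and less RNA per cell cannot be told apart.

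The first comparison asks what scratch injury did to these genes. None of the 53 genes tested was called in Trauma against Control (limma, Benjamini-Hochberg adjusted p of at most 0.05), against 6.00% of all genes tested. Unadjusted p-values of at most 0.05 were found for 10 of the 53, or 18.9%, beside 20.0% of all genes. A second test, voom on the recovered reads, called 2 of the 53, Wipi1 and Deptor, beside 7.65% of all genes. Over all genes voom called 862 higher and 286 lower, in place of 496 and 405, so the balance moved in the whole table. The libraries of both groups were apart for 7 genes, or 13.2% (12.9% of all genes tested were), namely Ulk2, Sh3glb1, Wipi1, Atg16l1, Map1lc3b, Vps18 and Mtor. Fold changes of the 53 ran from -0.18 to 0.43 on the log2 scale, with a median of 0.00 (-0.01 over all genes tested).

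The second comparison asks what TGF-β1 did to trauma-injured cortical neurons. Here 15 of the 53 genes were called, 5 upregulated and 10 downregulated, which is 28.3% of those tested beside 12.1% of all genes. Over all genes 4.40% were called higher and 7.71% lower. The libraries of both groups were apart for 23 of the 53, or 43.4%, against 22.2% of all genes tested. In Trauma+TGF-β1 against Control, which shares its TGF-β1 libraries with the comparison above, 14 of the 53 were called, 5 higher and 9 lower, beside 16.6% of all genes called (6.14% higher and 10.4% lower), and the libraries were apart for 13 of the 53, or 24.5%, against 18.5%. Both comparisons called 11 of the genes. Against Control, voom called 9 higher and 7 lower, and over all genes 19.3%, 1677 higher and 1223 lower, in place of 922 and 1565. The changes called by limma lay between -0.48 and 0.45 on the log2 scale, and the median of the 53 was 0.03 against Trauma and 0.00 against Control (0.00 and -0.01 over all genes tested). A list of autophagy genes that had been drawn from these same libraries holds 20 of the 53. Of those 20, 12 were called here against Trauma, or 60%. Of the other 33, 3 were called (Map1lc3a, Vps18 and Rictor), or 9.09%, beside 12.1% of all genes. Against Control the shares were 40% and 18.2%, beside 16.6%. The count of 15 is therefore not independent evidence of an excess or of a direction.

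**Figure D1:**
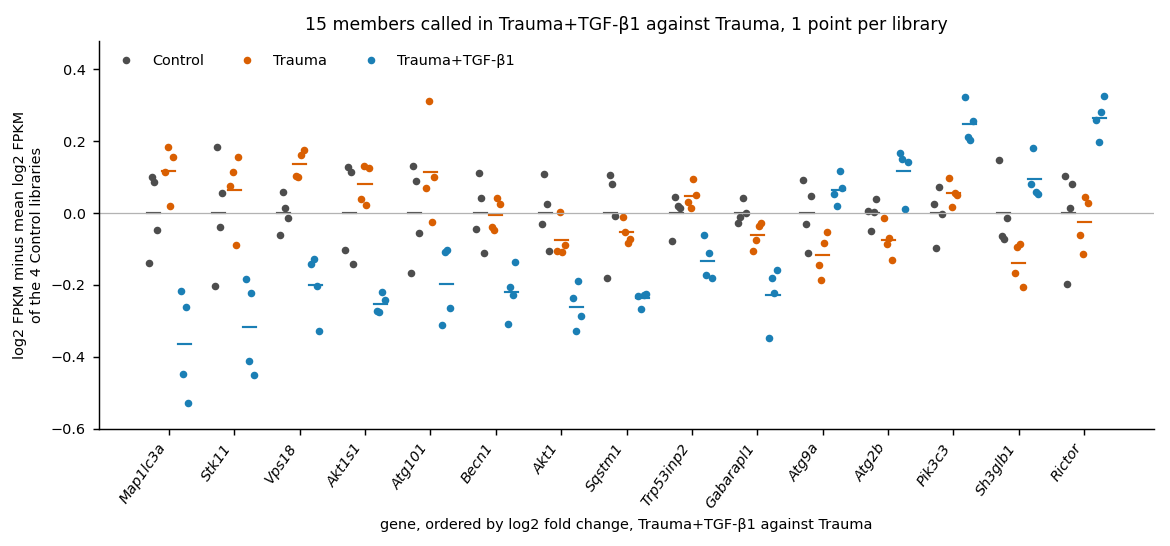
Level of the 15 genes called in Trauma+TGF-β1 against Trauma, in each of the 12 libraries, as log2 FPKM minus the gene's mean log2 FPKM in Control (vertical axis). Genes are ordered along the horizontal axis by their log2 fold change, points are libraries and lines are group means; the 10 genes on the left are lower in Trauma+TGF-β1 than in every Trauma library and the 5 on the right higher.

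**Figure D2:**
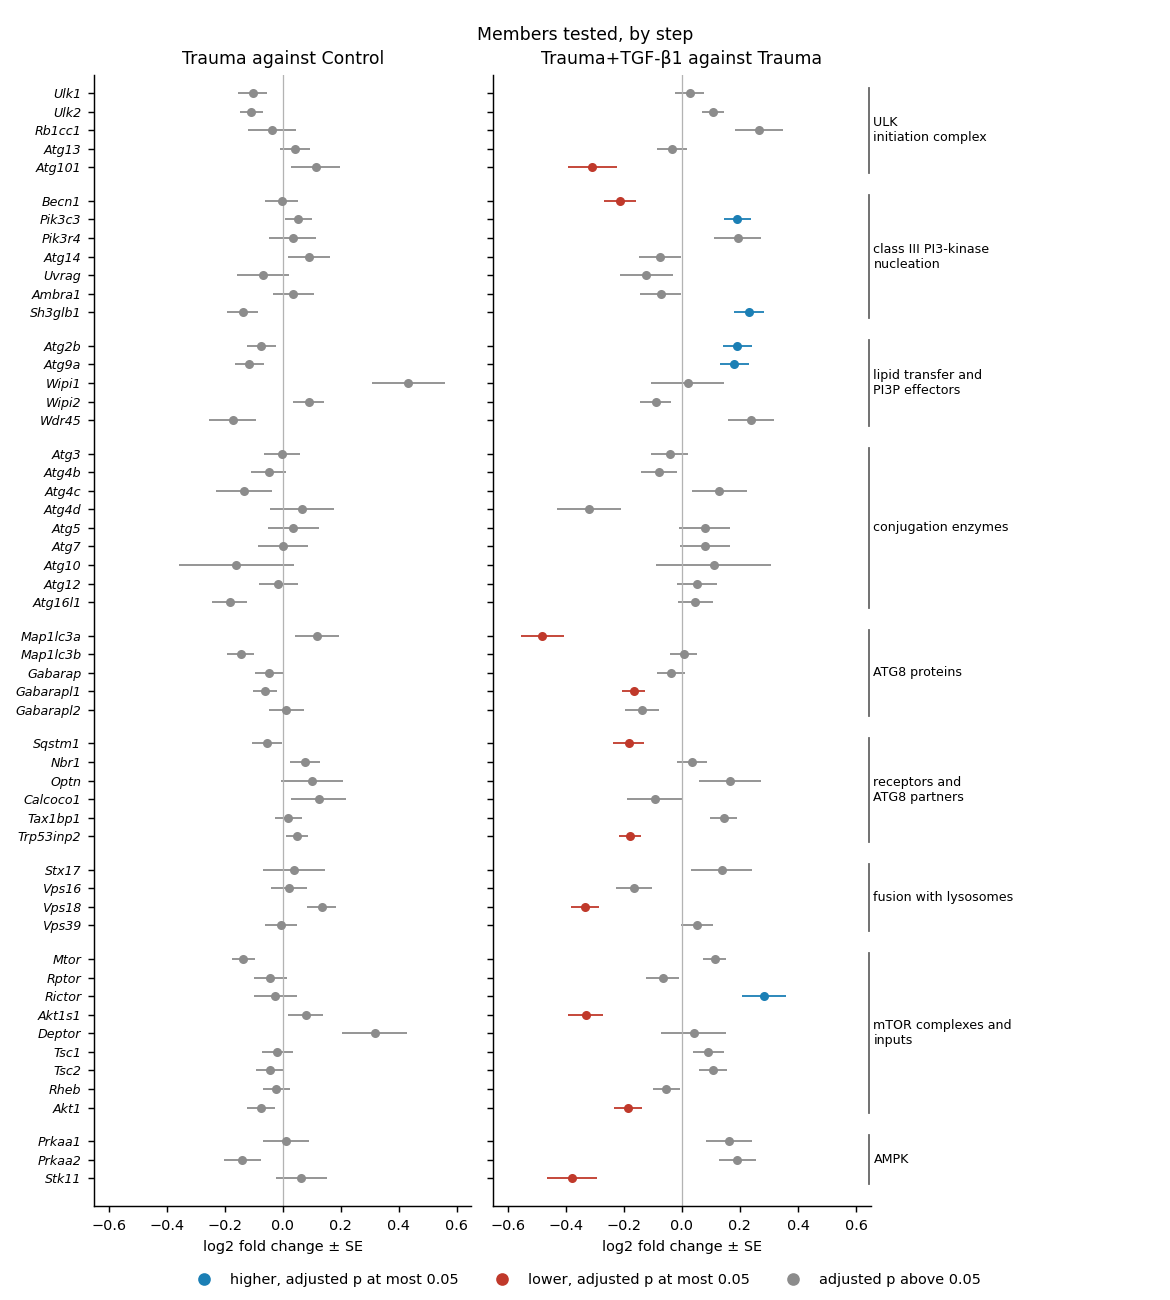
Log2 fold change with its standard error (horizontal axis) of the 53 genes tested, grouped by step of autophagy, in Trauma against Control (left) and Trauma+TGF-β1 against Trauma (right). Coloured points passed an adjusted p of 0.05. None did on the left, beside 6.00% of all genes tested, and 15 did on the right, beside 12.1%. The 15 lie in all steps but the conjugation enzymes, whose 9 genes are too few to set that step apart.

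Of the ULK initiation complex, which phosphorylates the nucleation machinery, 1 of 5 genes was called against Trauma, beside 12.1% of all genes. Atg101 (chr15:101284272-101290945), the subunit that binds and steadies ATG13, measured 14.8, 18.2, 17.6 and 15.96 FPKM in the Control libraries, 17.4, 20.6, 16.3 and 17.8 FPKM in the Trauma libraries and 13.4, 15.4, 15.4 and 13.8 FPKM in the Trauma+TGF-β1 libraries. Atg101 fell by 0.31 ± 0.08 (log2, SE, adjusted p = 0.0343), and all 4 treated libraries lay below all 4 Trauma libraries; against Control the difference of -0.20 ± 0.08 did not pass (adjusted p = 0.133). Rb1cc1, the scaffold also known as FIP200, stood at 6.71 to 8.42 FPKM in Trauma+TGF-β1 and 5.66 to 6.21 FPKM in Trauma, without overlap, but its log2 difference of 0.27 ± 0.08 had an adjusted p of 0.0543. The kinase genes Ulk1 and Ulk2 differed by 0.03 ± 0.05 and 0.11 ± 0.04 (adjusted p = 0.764 and 0.0934). Atg13, the bridging subunit, stood at 14.6 to 17.2 FPKM over all libraries.

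Nucleation rests on the lipid kinase VPS34 and its partners, and here genes moved both ways. Becn1 (chr11:101285952-101302286), encoding Beclin 1, the adaptor that assembles the complex, measured 8.69, 9.68, 9.23 and 8.29 FPKM in the Control libraries, 8.72, 8.67, 9.23 and 9.12 FPKM in the Trauma libraries and 7.23, 7.76, 7.64 and 8.15 FPKM in the Trauma+TGF-β1 libraries. Becn1 fell by 0.21 ± 0.06 (log2, SE, adjusted p = 0.0302) against Trauma and by 0.22 ± 0.06 against Control (adjusted p = 0.0215). Every treated library was below every other library. Pik3c3, which encodes VPS34 itself, measured 8.72, 8.01, 9.01 and 8.56 FPKM in the Control libraries, 9.16, 8.66, 8.90 and 8.87 FPKM in the Trauma libraries and 10.7, 9.92, 9.86 and 10.2 FPKM in the Trauma+TGF-β1 libraries. Pik3c3 rose by 0.19 ± 0.05 (log2, SE, adjusted p = 0.0237) and by 0.25 ± 0.05 against Control (adjusted p = 0.00511), again without overlap, so the catalytic subunit and its adaptor went in opposite directions.

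Sh3glb1 (chr3:144683678-144720335), encoding the membrane-bending protein Bif-1 that joins Beclin 1 through UVRAG, measured 32.4, 27.97, 27.8 and 28.97 FPKM in the Control libraries, 26.1, 27.4, 27.5 and 25.4 FPKM in the Trauma libraries and 30.9, 33.2, 30.5 and 30.3 FPKM in the Trauma+TGF-β1 libraries. Sh3glb1 rose by 0.23 ± 0.05 (log2, SE, adjusted p = 0.019). The treated libraries were above the Trauma libraries but overlapped the Control libraries, and the difference from Control was 0.09 ± 0.05 (adjusted p = 0.255). Of the other subunits, Pik3r4 (VPS15), Atg14, Uvrag and Ambra1 had log2 differences of 0.19, -0.07, -0.12 and -0.07 against Trauma, with adjusted p from 0.144 to 0.546. Nrbf2, a further subunit, was listed at 0 in 11 libraries and held 1 read in the other, so it was not tested.

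Lipid is fed into the growing membrane by ATG2 and ATG9. Of the 56 genes, Atg2b and Atg9a were tested for this step, and both were upregulated. Both are also in the list drawn from these same libraries. Atg2b (chr12:105616136-105685211), the lipid transfer protein, measured 5.91, 5.69, 5.89 and 6.05 FPKM in the Control libraries, 5.83, 5.54, 5.61 and 5.37 FPKM in the Trauma libraries and 6.61, 6.53, 5.92 and 6.49 FPKM in the Trauma+TGF-β1 libraries. Atg2b rose by 0.19 ± 0.05 (log2, SE, adjusted p = 0.0307). Atg9a (chr1:75180860-75192196), the lipid scramblase of the seed vesicles, measured 15.4, 14.2, 13.4 and 14.95 FPKM in the Control libraries, 13.1, 12.7, 13.6 and 13.9 FPKM in the Trauma libraries and 14.99, 14.6, 15.7 and 15.2 FPKM in the Trauma+TGF-β1 libraries. Atg9a rose by 0.18 ± 0.05 (log2, SE, adjusted p = 0.0372). For both the treated libraries were above all Trauma libraries, while the differences from Control, 0.12 ± 0.05 and 0.06 ± 0.05, did not pass (adjusted p = 0.136 and 0.413). Atg2a, the paralog of Atg2b, held 1 read in 1 library and was not tested. Atg9b, the paralog of Atg9a, is not among the 56 but was tested with the other pathway genes, and it went the other way. It stood at 0.80 to 1.03 FPKM in Trauma+TGF-β1 and 1.21 to 1.45 FPKM in Trauma, without overlap. Its log2 difference of -0.50 ± 0.18 did not pass (adjusted p = 0.0872).

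The PI3P-binding propellers were tested through Wipi1, Wipi2 and Wdr45. Wipi1 (chr11:109573331-109611967), which recruits further machinery to PI3P, measured 2.18, 2.19, 2.21 and 1.94 FPKM in the Control libraries, 2.41, 3.08, 2.99 and 3.21 FPKM in the Trauma libraries and 2.65, 3.43, 3.43 and 2.42 FPKM in the Trauma+TGF-β1 libraries. Against Control it was 0.45 ± 0.13 higher in Trauma+TGF-β1 (adjusted p = 0.029) and 0.43 ± 0.13 higher in Trauma (adjusted p = 0.0664), with neither set of libraries overlapping Control, and the injured groups differed by 0.02 ± 0.13 (adjusted p = 0.938). With 132 to 252 reads per library, Wipi1 rested on the fewest reads of the genes called. Wipi2 and Wdr45 differed from Trauma by -0.09 ± 0.05 and 0.24 ± 0.08 (adjusted p = 0.292 and 0.071), the latter without overlap of the libraries.

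None of the 9 conjugation enzymes tested was called in any comparison. Over all genes the shares called were 6.00% in Trauma against Control, 12.1% against Trauma and 16.6% in Trauma+TGF-β1 against Control. So few genes do not set this step apart from the whole table. Of the 9, 1 is in the list drawn from these same libraries. The E1 enzyme Atg7 stood at 2.65 to 3.35 FPKM over the 12 libraries and the E2 enzyme Atg3 at 11.3 to 13.8 FPKM. Atg5, Atg12 and Atg16l1, which form the E3-like complex, differed by 0.08, 0.05 and 0.05 from Trauma on the log2 scale. The largest difference from Trauma was that of the ATG4 protease Atg4d, at 2.42 to 2.86 FPKM in Trauma+TGF-β1 and 3.01 to 3.68 FPKM in Trauma, apart in all libraries, with a log2 difference of -0.32 ± 0.11 (adjusted p = 0.0753). Atg4a was listed at 0 to 0.395 FPKM and not tested.

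The ATG8 proteins, which coat the membrane and hold cargo receptors, contained the largest change among the 53 genes against Trauma. Map1lc3a (chr2:155276297-155278073), encoding LC3A, was the highest of the 56 genes in FPKM, with a mean of 192 FPKM over all libraries. By reads it held 44627 in all, below genes such as Trp53inp2 (90538) and Sqstm1 (79118). Map1lc3a measured 182, 215, 213 and 194 FPKM in the Control libraries, 217, 228, 203 and 223 FPKM in the Trauma libraries and 173, 147, 168 and 139 FPKM in the Trauma+TGF-β1 libraries. Map1lc3a fell by 0.48 ± 0.07 (log2, SE, adjusted p = 0.00546), and by 0.36 ± 0.07 against Control (adjusted p = 0.0075). All 4 treated libraries were below all 8 others. Its paralog Map1lc3b, whose product is the usual autophagosome marker, stood at 27.6 to 31.1 FPKM in Trauma+TGF-β1 and 27.9 to 30.1 FPKM in Trauma and differed by 0.01 ± 0.05 (adjusted p = 0.954).

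In the GABARAP branch, Gabarapl1 (chr6:129533160-129542346) measured 109, 111, 115 and 112 FPKM in the Control libraries, 104, 106, 109 and 109 FPKM in the Trauma libraries and 87.7, 98.5, 95.6 and 99.9 FPKM in the Trauma+TGF-β1 libraries. Gabarapl1 fell by 0.17 ± 0.04 (log2, SE, adjusted p = 0.0243), and by 0.23 ± 0.04 against Control (adjusted p = 0.00395), with the treated libraries lowest in both cases. Gabarap, at 64.8 to 76.7 FPKM over all libraries, and Gabarapl2, at 31.5 to 38.7 FPKM, differed from Trauma by -0.04 ± 0.05 and -0.14 ± 0.06 (adjusted p = 0.653 and 0.145). All 5 ATG8 genes had a negative difference from Control, as did 28 of all 53 genes. Of the 5, Map1lc3a and Gabarapl1 passed, beside 16.6% of all genes, and Gabarapl1 is in the list drawn from these same libraries. The differences of Map1lc3b, Gabarap and Gabarapl2 from Control were -0.14, -0.09 and -0.12 and did not pass.

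**Figure D3:**
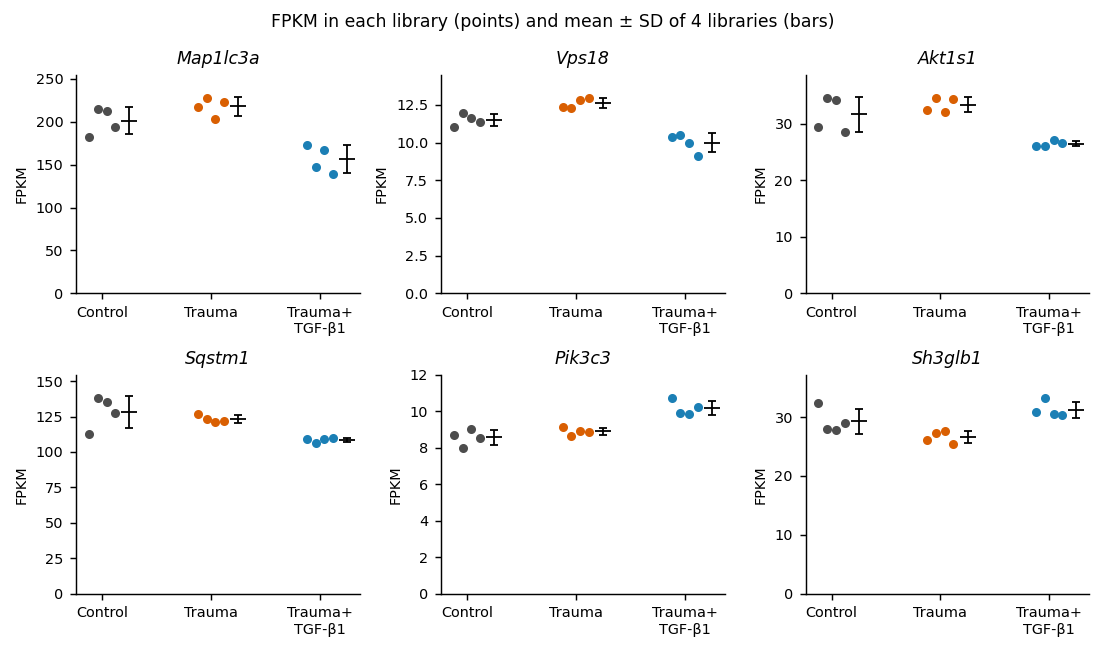
FPKM (vertical axis, from 0) of Map1lc3a, Vps18, Akt1s1, Sqstm1, Pik3c3 and Sh3glb1 in each of the 4 libraries per group, with mean ± SD beside the points. Map1lc3a, at 139 to 173 FPKM in Trauma+TGF-β1, lies below the 203 to 228 FPKM of Trauma, whereas Pik3c3 lies above every other library.

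Cargo receptors tether ubiquitinated or other cargo to ATG8. Sqstm1 (chr11:50199366-50210827), encoding p62, measured 113, 138, 135 and 127 FPKM in the Control libraries, 127, 124, 121 and 122 FPKM in the Trauma libraries and 109, 106, 109 and 109.5 FPKM in the Trauma+TGF-β1 libraries. Sqstm1 fell by 0.18 ± 0.05 (log2, SE, adjusted p = 0.043), and by 0.24 ± 0.05 against Control (adjusted p = 0.0109). Its treated libraries were the lowest of all 12. The related receptor Nbr1 stood at 18.1 to 21.8 FPKM in all libraries and differed by 0.03 ± 0.05 (adjusted p = 0.713).

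Trp53inp2 (chr2:155381059-155389850), whose product DOR binds ATG8 proteins and brings them out of the nucleus, measured 84.6, 92.1, 90.4 and 90.1 FPKM in the Control libraries, 91.3, 90.2, 95.4 and 92.5 FPKM in the Trauma libraries and 85.6, 79.2, 82.6 and 78.7 FPKM in the Trauma+TGF-β1 libraries. Trp53inp2 fell by 0.18 ± 0.04 (log2, SE, adjusted p = 0.0143); the treated libraries were below all Trauma libraries, but the highest of them lay above the lowest Control library, and the difference from Control was -0.13 ± 0.04 (adjusted p = 0.0338). Tax1bp1 (chr6:52713729-52766780), a ubiquitin-binding receptor, measured 12.6, 11.5, 11.9 and 12.3 FPKM in the Control libraries, 12.5, 11.9, 12.4 and 12.2 FPKM in the Trauma libraries and 12.9, 13.9, 12.98 and 14.5 FPKM in the Trauma+TGF-β1 libraries. It was 0.16 ± 0.05 higher than Control (adjusted p = 0.0321) and 0.14 ± 0.05 higher than Trauma, which did not pass (adjusted p = 0.0633), although the treated libraries were the highest of all. Optn and Calcoco1 were not called (adjusted p of 0.339 and 0.566 against Trauma).

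Fusion with the lysosome needs the SNARE syntaxin 17 and the HOPS tether. Vps18 (chr2:119288740-119298453), a core subunit of HOPS, measured 11.00, 11.96, 11.6 and 11.4 FPKM in the Control libraries, 12.3, 12.3, 12.8 and 12.95 FPKM in the Trauma libraries and 10.4, 10.5, 9.97 and 9.14 FPKM in the Trauma+TGF-β1 libraries. Vps18 fell by 0.33 ± 0.05 (log2, SE, adjusted p = 0.0044), the smallest adjusted p of the 53 in this comparison, and by 0.20 ± 0.05 against Control (adjusted p = 0.0183). The treated libraries were the lowest of all and the Trauma libraries the highest, the latter by 0.13 ± 0.05 over Control (adjusted p = 0.147). Vps16, another core subunit, was apart from Trauma too, at 14.7 to 17.1 FPKM against 17.2 to 18.8 FPKM, with a difference of -0.17 ± 0.06 (adjusted p = 0.0997). Vps39 and Stx17 differed by 0.05 ± 0.06 and 0.14 ± 0.11 (adjusted p = 0.595 and 0.434).

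In the mTOR pathway, 3 of 9 genes were called against Trauma and 4 against Control, beside 12.1% and 16.6% of all genes. Of the 9, 4 are in the list drawn from these same libraries, and 2 of those were called in each comparison. None of the 3 or 4 calls passed after the GC correction described below. Akt1s1 (chr7:44848991-44855421), encoding PRAS40, which restrains mTOR complex 1 until AKT phosphorylates it, measured 29.4, 34.5, 34.2 and 28.6 FPKM in the Control libraries, 32.4, 34.6, 32.1 and 34.5 FPKM in the Trauma libraries and 26.1, 26.1, 27.1 and 26.7 FPKM in the Trauma+TGF-β1 libraries. Akt1s1 fell by 0.33 ± 0.06 (log2, SE, adjusted p = 0.00907), and by 0.25 ± 0.06 against Control (adjusted p = 0.0155), with the treated libraries lowest of all. Akt1 (chr12:112653821-112674884), the kinase that acts on PRAS40 and TSC2, measured 59.8, 65.9, 62.2 and 56.8 FPKM in the Control libraries, 56.8, 61.2, 56.7 and 57.4 FPKM in the Trauma libraries and 51.8, 48.6, 53.5 and 50.01 FPKM in the Trauma+TGF-β1 libraries. Akt1 fell by 0.19 ± 0.05 (log2, SE, adjusted p = 0.0298), and by 0.26 ± 0.05 against Control (adjusted p = 0.00463), again below every other library.

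Rictor (chr15:6708379-6800401), the defining subunit of mTOR complex 2, measured 3.28, 2.66, 3.08 and 3.23 FPKM in the Control libraries, 2.93, 2.82, 3.15 and 3.11 FPKM in the Trauma libraries and 3.66, 3.501, 3.71 and 3.83 FPKM in the Trauma+TGF-β1 libraries. Rictor rose by 0.28 ± 0.08 (log2, SE, adjusted p = 0.0317) and by 0.26 ± 0.08 against Control (adjusted p = 0.0358), and the treated libraries were the highest of all. Deptor (chr15:55112317-55259271), an inhibitor of both mTOR complexes, measured 3.67, 2.65, 2.60 and 2.68 FPKM in the Control libraries, 3.81, 3.02, 3.85 and 3.79 FPKM in the Trauma libraries and 3.70, 3.77, 3.68 and 3.67 FPKM in the Trauma+TGF-β1 libraries. It was 0.36 ± 0.11 higher in Trauma+TGF-β1 than in Control (adjusted p = 0.0463) and 0.04 ± 0.11 higher than in Trauma (adjusted p = 0.853); Control replicate 1, at 3.67 FPKM, lay with the injured libraries and apart from the other 3 Control libraries at 2.60 to 2.68 FPKM.

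Mtor itself, at 15.5 to 16.4 FPKM in Trauma, was below all Control (16.5 to 18.4 FPKM) and all Trauma+TGF-β1 libraries (16.6 to 17.6 FPKM), with differences of -0.14 ± 0.04 against Control (adjusted p = 0.0724) and 0.11 ± 0.04 for treatment (adjusted p = 0.0844). Rptor, Tsc1, Tsc2 and Rheb, which define complex 1 and the switch upstream of it, differed from Trauma by -0.07, 0.09, 0.11 and -0.05, with adjusted p from 0.153 to 0.484.

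AMPK was represented by its catalytic subunits and its upstream kinase. Stk11 (chr10:80115803-80130682), encoding LKB1, which activates AMPK, measured 14.6, 19.1, 16.4 and 17.5 FPKM in the Control libraries, 17.7, 18.2, 15.8 and 18.7 FPKM in the Trauma libraries and 14.8, 12.6, 14.4 and 12.3 FPKM in the Trauma+TGF-β1 libraries. Stk11 fell by 0.38 ± 0.09 (log2, SE, adjusted p = 0.0196), and by 0.32 ± 0.09 against Control (adjusted p = 0.0298); the treated libraries were below all Trauma libraries and overlapped the lowest Control library. Prkaa1 and Prkaa2, the catalytic subunits, differed from Trauma in the other direction, by 0.16 ± 0.08 and 0.19 ± 0.06, without passing (adjusted p = 0.2 and 0.0686).

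Ratios of paralogs or partners within a library do not depend on a scaling factor common to all genes of a library, but can depend on GC content. Of 8 ratios chosen, 7 could be formed, Atg2a being at or near 0, which gave 21 tests by an exact two-sided permutation test of 4 against 4 libraries; the smallest p this allows is 0.0286. None passed after adjustment, and 6 reached that smallest p, each with an adjusted p of 0.1. Map1lc3a stood at 7.22 to 7.85 times Map1lc3b in Trauma, 5.52 to 7.00 times for Control and 4.72 to 6.08 times in Trauma+TGF-β1. Map1lc3a and Map1lc3b held 44627 and 44135 reads in all, over exon lengths of 1181 and 7517 bases. The size of this ratio therefore rests on the lengths. Rictor stood at 0.455 to 0.553 times Rptor in Trauma+TGF-β1, above the 0.352 to 0.414 of Trauma and the 0.340 to 0.426 of Control. Sqstm1 stood at 5.05 to 5.51 times Nbr1 in Trauma+TGF-β1, below the 5.55 to 7.02 of Trauma and the 5.94 to 7.25 of Control. The paired genes differ in GC content (63.1% for Map1lc3a and 51.5% for Map1lc3b, 42.5% for Rictor and 56.5% for Rptor, 54.02% for Sqstm1 and 47.7% for Nbr1). With each library corrected for GC content, the log2 difference from Trauma went from -0.49 to -0.28 for Map1lc3a to Map1lc3b, from 0.36 to 0.13 for Rictor to Rptor and from -0.22 to -0.11 for Sqstm1 to Nbr1, and the libraries of the latter ratios, Rictor to Rptor and Sqstm1 to Nbr1, then overlapped between Trauma+TGF-β1 and Trauma. The ratios Ulk2 to Ulk1, Prkaa2 to Prkaa1, Gabarapl1 to Gabarap and Tsc1 to Tsc2 overlapped between groups in every comparison, with unadjusted p from 0.0857 to 1.

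**Figure D4:**
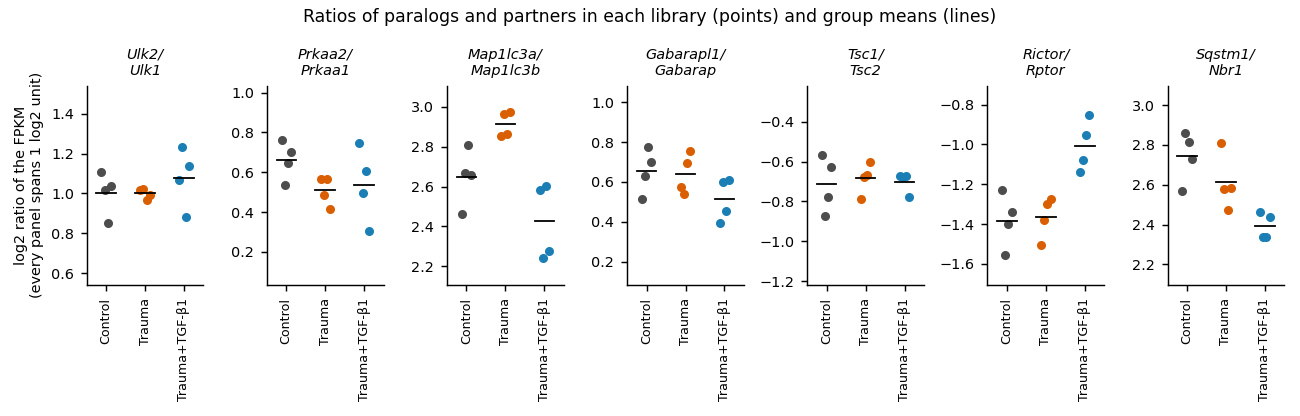
Log2 ratio of the FPKM of 7 gene pairs (vertical axis, each panel spanning 1 log2 unit) in each library, with group means as lines. Rictor to Rptor is higher in all 4 Trauma+TGF-β1 libraries than in the other 8, and Sqstm1 to Nbr1 lower; the remaining pairs overlap except Map1lc3a to Map1lc3b in Trauma.

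The counts depended on single libraries. Against Trauma, 15 genes became 9 without Trauma replicate 1, 5 without Trauma replicate 2 and 4 without Trauma replicate 4, and 8, 5 and 7 without Trauma+TGF-β1 replicates 1, 2 and 4, while the share of all genes called fell to between 4.34% and 9.80%. Against Control, 14 became 7 and 6 without Control replicates 2 and 3 and 9 without Trauma+TGF-β1 replicate 2 or 4, while the share of all genes called fell to between 9.92% and 11.2%. No called gene turned the sign of its fold change when a library was left out. Map1lc3a passed in both comparisons under all 24 alternatives and Pik3c3 under all 24 against Control. Against Trauma, Vps18 passed in 23, Trp53inp2 and Akt1s1 in 22 each, and Sqstm1 in 9. The rest of the genes called against Trauma passed in 13 (Atg9a and Rictor) to 20 (Sh3glb1). Against Control the other called genes passed in 7 (Deptor) and 12 (Rictor) up to 23 (Gabarapl1 and Sqstm1).

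Fold changes against Trauma went with the GC content of the transcript over the whole table. Spearman's rho was -0.47 over 14699 genes with a GC value and -0.55 over the 53; this is a description across genes, which share their libraries. The 10 downregulated genes had a median GC content of 58.0% and a median length of 3727 bases, and the 5 upregulated ones 47.9% and 7467 bases. After each library was corrected for GC content, 10 of the 53 were called, beside 5.96% of all genes, 6 of them higher and 4 lower (262 and 633 over all genes), and 6 of the 10 were among the original 15. Becn1, Map1lc3a, Trp53inp2 and Vps18 remained lower (-0.29 ± 0.06, -0.25 ± 0.04, -0.13 ± 0.03 and -0.20 ± 0.05; adjusted p = 0.0173, 0.00827, 0.0344 and 0.03), and Atg2b and Atg9a remained higher (0.19 ± 0.05 and 0.28 ± 0.06; adjusted p = 0.0403 and 0.0207). Ulk1, Wdr45, Mtor and Tsc2 were called higher as well, by 0.16, 0.30, 0.19 and 0.19. After the correction Atg101, Gabarapl1, Sqstm1, Stk11, Akt1s1, Akt1, Pik3c3, Sh3glb1 and Rictor no longer passed. Their differences after it ran from -0.22 ± 0.07 for Stk11 to 0.17 ± 0.07 for Rictor, with Pik3c3 at 0.16 ± 0.05 (adjusted p = 0.0737) and Akt1 at -0.02 ± 0.04 (adjusted p = 0.811). Against Control the correction left 7 of the 14 called, beside 13.6% of all genes. The calls of Tax1bp1, Vps18, Rictor, Akt1s1, Deptor, Akt1 and Stk11 were lost there, with differences of 0.08, -0.10, 0.19, -0.10, 0.30, -0.13 and -0.19 and adjusted p from 0.067 to 0.173. With quantile normalization 16 of the 53 were called, 10 higher and 6 lower, 11 of them among the original 15. Over all genes that setting called 13.7%, 1125 higher and 927 lower, in place of 661 and 1158, so the balance turned in the whole table too. The part of GC content in these differences was not tested.

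**Figure D5:**
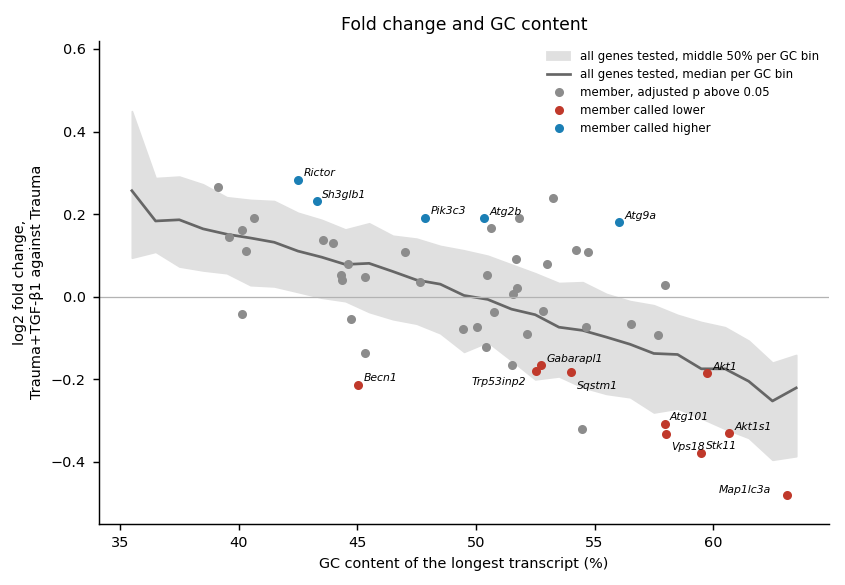
Log2 fold change in Trauma+TGF-β1 against Trauma (vertical axis) against GC content of the longest annotated transcript in percent (horizontal axis), for the 53 genes (points) and for all genes tested (line, median per bin of 1 percentage point; band, middle 50%). The line falls from left to right; Becn1 lies below it at 45.04% GC and Atg9a above it at 56.05% GC.

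Several called genes share exon bases with another annotated gene, and whether reads were counted by strand is not given in the sources used here, so reads of such a pair cannot be told apart. Exons of Becn1 were covered to 43.9% by Cntd1, itself at 0.0656 FPKM, those of Atg9a to 32.6% by Ankzf1 (3.62 FPKM), those of Gabarapl1 to 28.3% by 1700101I11Rik (0.572 FPKM) and those of Sqstm1 to 17.3% by Mrnip (2.81 FPKM). For Stk11 the shared stretch was 5.07% of the exon bases, but Cbarp, the other gene, stood at 54.9 FPKM. Map1lc3a, Vps18, Pik3c3, Sh3glb1, Atg101, Trp53inp2, Rictor and Akt1 shared none.

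The promoters of genes that moved are shown because genes of both directions moved together after TGF-β1, so that their upstream letters can be set side by side. RefSeq promoters (GRCm38.p6) were at hand for 48 of the 56 genes. The GC box GGGCGG, the core of the SP1 site, was searched on both strands in the 250 bases before each start site and found for 31 of the 48 genes, or 64.6%, beside 64.8% of the 9984 tested genes with a promoter and 35.4% of all 27025 genes with one. It was present in 5 of the 8 downregulated and 3 of the 4 upregulated genes with an entry. The E-box CACGTG, a core that TFEB and other factors bind, was found for 6 of the 48, or 12.5% (10.0% of tested genes, 6.86% of all), namely Atg3, Atg5, Atg7, Nrbf2, Rheb and Vps16, and for none of the 12 called genes with an entry. GTAAACA, a FOXO motif, was found for Akt1 alone, or 2.08% (2.58% and 3.54%). None of the 3 motifs contains another, and a match is a description of letters, not a bound site. The 250 bases before the start follow for the 3 downregulated and 2 upregulated genes with the largest differences from Trauma and an entry, 5′ to 3′ on the gene's strand, with GC boxes in capitals.
Stk11, chr10:80115545-80115794, plus strand: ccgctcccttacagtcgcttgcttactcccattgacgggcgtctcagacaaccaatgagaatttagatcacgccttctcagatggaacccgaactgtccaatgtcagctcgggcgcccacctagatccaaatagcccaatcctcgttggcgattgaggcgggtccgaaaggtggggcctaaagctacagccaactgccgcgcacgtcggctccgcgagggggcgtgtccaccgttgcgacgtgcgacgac
Vps18, chr2:119288492-119288741, plus strand: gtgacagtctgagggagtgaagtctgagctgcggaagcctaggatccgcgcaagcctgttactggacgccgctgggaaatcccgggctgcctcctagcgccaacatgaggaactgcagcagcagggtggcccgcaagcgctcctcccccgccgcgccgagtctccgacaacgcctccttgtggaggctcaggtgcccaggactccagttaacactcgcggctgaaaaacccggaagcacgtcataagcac
Akt1s1, chr7:44850122-44850371, plus strand: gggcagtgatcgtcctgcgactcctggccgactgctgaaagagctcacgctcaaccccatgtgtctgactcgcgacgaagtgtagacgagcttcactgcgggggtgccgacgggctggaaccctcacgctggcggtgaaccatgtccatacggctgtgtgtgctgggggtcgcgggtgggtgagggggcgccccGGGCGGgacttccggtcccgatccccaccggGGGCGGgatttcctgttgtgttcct
Rictor, chr15:6708131-6708380, plus strand: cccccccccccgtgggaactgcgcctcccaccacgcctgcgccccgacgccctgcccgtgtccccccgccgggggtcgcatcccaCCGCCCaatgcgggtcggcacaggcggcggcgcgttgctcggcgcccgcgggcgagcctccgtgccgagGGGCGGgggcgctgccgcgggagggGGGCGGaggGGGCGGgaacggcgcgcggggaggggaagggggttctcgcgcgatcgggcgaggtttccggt
Sh3glb1, chr3:144720336-144720585, minus strand: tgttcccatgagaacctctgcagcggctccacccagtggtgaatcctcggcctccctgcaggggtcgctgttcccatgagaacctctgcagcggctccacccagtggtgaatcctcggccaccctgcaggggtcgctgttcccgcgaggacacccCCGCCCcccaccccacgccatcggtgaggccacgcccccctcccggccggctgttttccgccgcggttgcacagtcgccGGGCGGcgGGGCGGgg
The windows of Rictor and Akt1s1, of opposite direction, hold 4 and 2 GC boxes, that of Sh3glb1 3, and those of Stk11 and Vps18 none. Their GC content was 81.2% for Rictor, 71.2% for Sh3glb1, 66.4% for Akt1s1, 63.2% for Vps18 and 59.6% for Stk11. The window of Akt1s1 lies inside the bounds given for that gene, chr7:44848991-44855421, as the RefSeq start site used is not the first base of the gene.

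Other genes of the same pathways were followed as 82 genes, 74 of them tested. Against Trauma 12 of the 74 were called, 4 higher and 8 lower (16.2%, beside 12.1% of all genes). Among the called genes the largest differences were those of Ddit4 (-0.55 ± 0.09; adjusted p = 0.00772), which encodes the stress-induced mTOR complex 1 inhibitor REDD1, of Lamtor2 (-0.41 ± 0.08; adjusted p = 0.0108), a subunit of the Ragulator that anchors mTOR complex 1 on lysosomes, and of Eif4ebp1 (-0.39 ± 0.09; adjusted p = 0.0215), the mTOR target that blocks translation initiation. Among the 7 transcription factors of autophagy, 5 were tested and none was called against Trauma.

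In Trauma against Control 5 of the 74 were called, all lower (6.76%, beside 6.00% of all genes), and among these the largest differences were those of Acaca (-0.40 ± 0.04; adjusted p = 0.000102), the fatty acid synthesis enzyme that AMPK inhibits, of Atf4 (-0.37 ± 0.07; adjusted p = 0.00742), a stress transcription factor, and of Camkk1 (-0.30 ± 0.06; adjusted p = 0.0197), a calcium-dependent kinase upstream of AMPK. In Trauma+TGF-β1 against Control 13 were called, 2 higher and 11 lower (17.6%, beside 16.6% of all genes), the largest called differences being those of Eif4ebp1 (-0.71 ± 0.09; adjusted p = 0.000596), Ddit4 (-0.60 ± 0.09; adjusted p = 0.00181) and Atf4 (-0.52 ± 0.07; adjusted p = 0.00054). Of these 74 genes 10 are in the list drawn from the same libraries, 4 of which were called against Trauma.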

How the data were processed

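The study measured polyA RNA by RNA-seq in 12 libraries, 4 per group as the labels give them. Per the labels and the study's methods the authors aligned reads to mm10 with HISAT2 2.0.5 and counted them per gene with featureCounts. The strand setting is not given in the sources used here. The authors deposited 1 table of FPKM for 55901 genes, with other columns for gene length and position. The deposited FPKM times length gave whole reads for 100% of values (within 0.1 read), 15052486 to 17381671 per library. The median ratio of a library's FPKM to each gene's geometric mean over libraries was the same, 1.006204, in every library. The deposited values had thus already been equalized between libraries.

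Values were analysed as log2(FPKM + 0.1), so fold changes of low genes are understated, for genes with a mean of at least 0.5 FPKM, with limma 3.58.1 (R 4.3.3) over all 3 groups with a mean-variance trend, and Benjamini-Hochberg adjustment over all 15016 genes. Genes with an adjusted p no higher than 0.05 were called. The script was tested on simulated data. Ratios used an exact permutation test. GC content was that of the longest GENCODE M21 transcript.

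The members, the other lists (82 pathway genes and markers of neurons, astrocytes, microglia, oligodendrocyte lineage, endothelial and mural cells and fibroblasts) and the tests were chosen with earlier results of these data known. All members may be named. Called members are given in every library, and of the other pathway genes the 3 with the largest called difference per comparison and Atg9b. The alternatives are described in the closing section. Replicate numbers did not pair the libraries (correlation of deviations from group means -0.01 to 0.08), so they entered as a block only in an alternative.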

Additional observations from a re-analysis of the deposited data

Results flagged for a closer look

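Among 159 groups of 4 libraries (53 genes in 3 groups), 12 held a library far from the other 3, with a gap above Dixon's 95% critical value, or 7.55%, where chance gives about 1 in 20. The flags fell on 7 libraries, 3 each on Trauma replicate 2 and Trauma+TGF-β1 replicate 2, and their cause was not tested.

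Trauma replicate 2 was low for Ulk2 (42.0 FPKM, the others 43.5 to 43.6) and Deptor (3.02, the others 3.79 to 3.85) and high for Akt1 (61.2, the others 56.7 to 57.4). Trauma+TGF-β1 replicate 2 was high for Rb1cc1 (8.42, the others 6.71 to 6.89) and Atg4c (8.85, the others 6.84 to 7.12) and low for Sqstm1 (106, the others 109.1 to 109.5). Trauma+TGF-β1 replicate 1 was low for Atg13 (14.6, the others 16.04 to 16.2) and replicate 3 for Atg2b (5.92, the others 6.49 to 6.61). Control replicate 4 was low for Wipi1 (1.94, the others 2.18 to 2.21) and Atg10 (1.51, the others 2.08 to 2.19), replicate 2 for Atg16l1 (8.09, the others 8.97 to 9.03), and replicate 1 was high for Deptor (3.67, the others 2.60 to 2.68).

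For the called genes among these, the difference without the library was 0.47 for Deptor against Control (adjusted p = 0.00278), 0.41 for Wipi1 against Control (adjusted p = 0.0703), 0.23 for Atg2b against Trauma (adjusted p = 0.0207), -0.17 for Sqstm1 against Trauma (adjusted p = 0.11) and -0.16 for Akt1 against Trauma (adjusted p = 0.0854). Over all 24 alternatives these adjusted p-values ran from 0.00278 to 0.123, 0.0124 to 0.0873, 0.0124 to 0.281, 0.00365 to 0.235 and 0.00916 to 0.811.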

How the results depend on the processing

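The count of 15 genes called against Trauma became 7 with no filter on low values, 9 with a correction for gene length and 4 with the GC correction and the replicate block, and leaving out 1 library gave 4 to 19. The count of 14 against Control became 8 with no filter, 7 with quantile normalization, 6 with the fit of only the compared groups, 7 with the GC correction, and 8 with that correction and the block, and leaving out 1 library gave 6 to 18. The count of 0 in Trauma against Control became 1 with the replicate block (Map1lc3b), 1 with the GC correction (Mtor), 2 with both and 2 with voom. It was 0 to 1 without 1 library, being 1 without Control replicate 1 or Trauma replicate 1. Over all genes the count fell from 1819 to 895 with the GC correction and to 987 with no filter against Trauma, from 2487 to 1601 with only the compared groups against Control, and from 901 to 575 and 518 with no filter and only the compared groups in Trauma against Control. Against Trauma it was 1329 with the length correction, 737 with the GC correction and the block, and 651 to 2539 without 1 library. Against Control it was 1692 with no filter, 2052 with quantile normalization, 2042 with the GC correction and 1990 with that correction and the block. Without 1 library it was 1489 to 3389 there. The replicate block alone, on numbers that only name the libraries, gave 12 and 11 genes against Trauma and Control, and 1517 and 2267 over all genes. Of 696 values of called genes under alternatives, 507 kept direction and threshold, 188 kept direction only and 1 turned: Trp53inp2 against Control, 0.0046 with quantile normalization. The cause was not tested. The ratio tests passed in 0 cases under each scaling and correction. With 3 against 4 libraries their smallest p is 0.0571, and with signs flipped within same-numbered pairs 0.125, so these could not pass and were not run. Of the genes tested, Atg10 rested on 38 to 72 reads per library. Nrbf2 and Atg2a held 1 read each in all, and whether depth or the gene counting accounts for that was not tested.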
